A study of Mus musculus with 8 samples.

Results

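The tissue inhibitors of metalloproteinases (TIMPs) and the ADAMTS proteases were followed on 8 microarrays of mouse liver and sorted liver cells. The members are the 10 genes Timp1, Timp2, Timp3, Timp4, Adamts1, Adamts2, Adamts4, Adamts5, Adamts9 and Adamtsl2, found by gene symbol among 20677 measured genes and read by 27 probe sets. Each gene's level is that of its brightest probe set on average, and its other probe sets are reported beside it. Levels are log2 of the deposited normalized intensity, and all differences are log2 differences between levels of the same probe set.

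All mice were adults of C57Bl6 background. Whole liver was wild type, and every sorted fraction came from mice with the Col1a1-GFP transgene, a green fluorescent reporter named for a collagen gene. With no injury named, the fractions were hepatic stellate cells (HSC) sorted for vitamin A, cells with GFP but without vitamin A (VitA-GFP+), and mesothelial cells (MC) sorted for GPM6A. Portal fibroblasts (PF), for which the labels name no gate, came from sham-operated mice, and HSC, PF and MC were also taken from biliary fibrosis, whose method of induction is not named in the labels. A sham control exists for PF alone, so the fibrotic HSC and MC arrays were set against those with no stated injury. Each group is 1 array, so no test, error or p-value exists for any comparison. The labels do not say how many animals stand behind an array.

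TIMPs are small secreted proteins that bind the active site of matrix metalloproteinases and block them. TIMP3 stays bound to the matrix and also inhibits several ADAM and ADAMTS enzymes. ADAMTS proteases are secreted enzymes with thrombospondin repeats: some cut proteoglycans such as versican and aggrecan, and others trim procollagens, while ADAMTS-like proteins share the repeats but have no protease domain. In the liver, stellate cells and other fibroblasts are known sources of TIMPs, and TIMP1 is widely used as a marker of fibrosis.

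The labels were first compared with marker genes and RNA quality controls. All 12 HSC markers were at or above the array median on both HSC arrays, all 12 portal fibroblast markers on both PF arrays, and all 11 mesothelial markers on both MC arrays. The VitA-GFP+ array also had all 12 HSC, 12 portal fibroblast and 11 mesothelial markers at or above its median. The same held for all 10 macrophage, 10 endothelial, 8 smooth muscle and 9 measured lymphocyte and neutrophil markers. Sham PF had 11 of 12 HSC markers there and PF of biliary fibrosis all 11 mesothelial ones, so this count does not separate the fractions. The HSC list median was 7.26 and 6.14 above the array median on the HSC arrays and at most 2.94 elsewhere. For portal fibroblast markers these values were 5.64, 5.31 and 4.77, and for mesothelial markers 7.22, 6.52 and 4.97. The ratio of the 3' to the 5' control probe set of Gapdh ran from 1.42 to 2.01 on the whole liver, uninjured and VitA-GFP+ arrays, and from 5.68 to 13.8 on the sham PF array and the 3 arrays of biliary fibrosis. These 4 arrays also share a series of sample codes. Whole liver, uninjured HSC and uninjured MC share another, VitA-GFP+ cells have a different one, and what the codes mark is not stated. The HSC and MC pairs cross both gaps, as do comparisons of PF with VitA-GFP+ cells and with whole liver, and the PF pair does not. Of these gaps, comparisons of VitA-GFP+ cells with uninjured HSC, uninjured MC and whole liver cross that of code series alone. In all these crossing comparisons the condition or cell type cannot be told apart from code series. Where both gaps are crossed, it cannot be told apart from RNA quality either. Every comparison with whole liver also sets transgenic against wild-type mice. The arrays differed in sex-linked genes too. Xist, on the X chromosome, read 11.40 in whole liver, 11.41 in uninjured MC and 11.96 in sham PF, and at most 5.84 elsewhere. Ddx3y, on the Y chromosome, read 2.04 in whole liver and 2.78 in sham PF, and at least 9.67 elsewhere. The part of genotype and sex was not tested.

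Most of these genes were measured at higher levels in the sorted cells than in whole liver. Whole liver had the lowest level of 9 of the 10 genes among the 8 arrays, Adamtsl2 being the exception. Of all measured genes, 17.5% had their lowest level in whole liver. By the brightest probe sets of Timp2, Timp3, Adamts2, Adamts5 and Adamts9, all 7 sorted arrays were at least 4-fold above whole liver, that is by 2 or more on the log2 scale and at or above the median of their array. The same held for 1.86% of all genes. The smallest of the 7 differences from whole liver was 4.68 for Adamts2, 3.31 for Adamts9, 3.20 for Timp2, 2.83 for Timp3 and 2.10 for Adamts5. Each of these genes also has a probe set that does not keep all 7 arrays 4-fold above whole liver. The smallest difference by any probe set was -0.47 for Timp2, in PF of biliary fibrosis. In MC of biliary fibrosis it was 0.51 for Adamts9, 0.94 for Adamts2, 1.22 for Adamts5 and 1.32 for Timp3. In a tissue sample, fewer cells of a type and less RNA per cell cannot be told apart, and all 7 differences share the same whole-liver array.

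Fraction by fraction, 8 of the 10 genes were 4-fold higher than whole liver in uninjured HSC, 9 in VitA-GFP+ cells, 6 in MC and 9 in sham PF, and 0 were lower. Of all genes, 8.55%, 10.5%, 8.78% and 11.0% were 4-fold higher in the same comparisons, and 11.0%, 7.26%, 11.4% and 10.7% were lower. The median difference of the 10 genes was 4.15, 4.34, 3.34 and 4.55, against -0.06, -0.20, -0.04 and 0.05 over all genes. Among 17 other measured ADAMTS and ADAMTS-like genes, 9, 9, 8 and 11 were 4-fold higher and 0 lower.

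**Figure D1:**
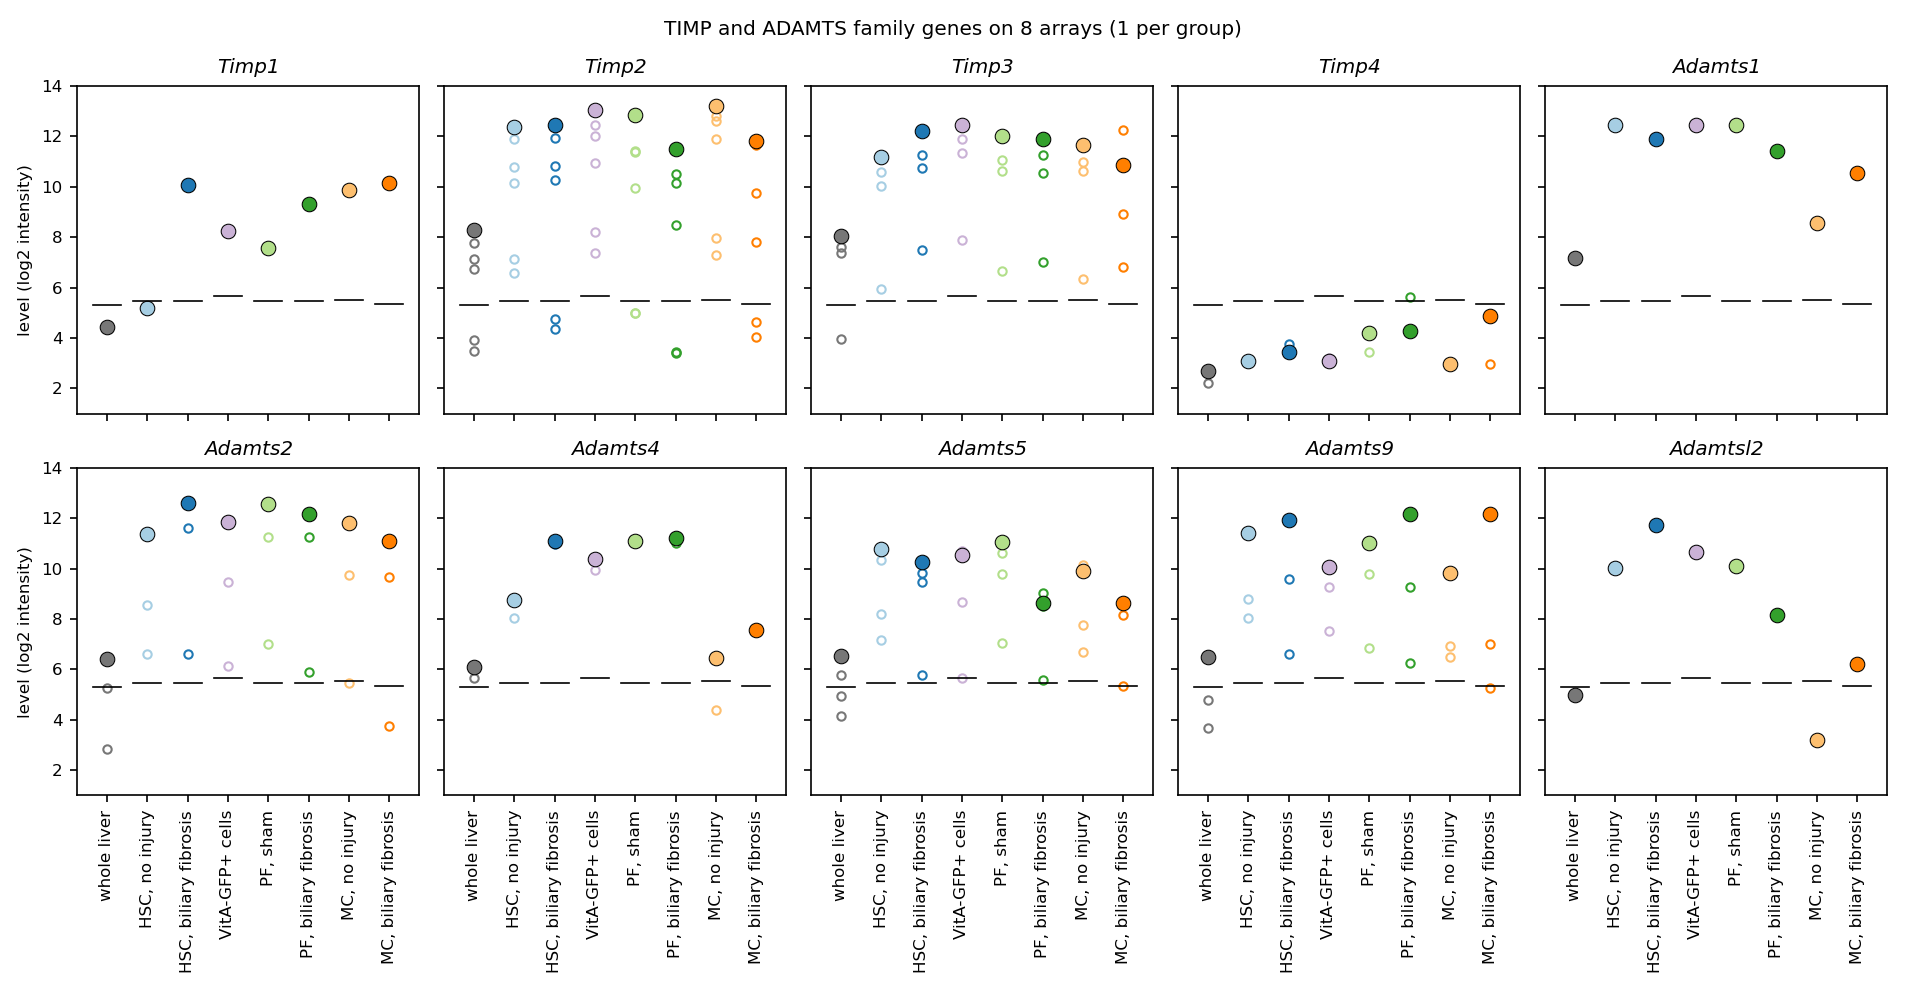
Level (log2 intensity) of each of the 10 genes on the 8 arrays, 1 array per group. Filled points are each gene's brightest probe set, open points the other probe sets, and black lines the median of each array. Whole liver is lowest for all but Adamtsl2, and Timp1 of HSC stands at 5.19 without stated injury and 10.07 in biliary fibrosis.

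Timp1 had the widest span of levels among the TIMPs, 5.74. It encodes the inducible, soluble inhibitor of many matrix metalloproteinases. Its level was 4.43 in whole liver, 5.19 in uninjured HSC, 8.24 in VitA-GFP+ cells, 9.87 in uninjured MC, 7.56 in sham PF, 10.07 in HSC of biliary fibrosis, 9.32 in PF of biliary fibrosis and 10.16 in MC of biliary fibrosis. Whole liver and uninjured HSC were below the median of their arrays, and the other 6 arrays were above it. Without stated injury, HSC were thus 4.68 below MC and 3.05 below VitA-GFP+ cells. Timp1 lies on the X chromosome, and the X-linked transcript Xist read 4.37 in uninjured HSC and 11.41 in uninjured MC. The Y-linked Ddx3y read 10.99 and 9.67 on the same arrays, so uninjured MC read high for both. Whether these readings bear on Timp1 was not tested. In biliary fibrosis the 3 fractions lay within 0.84 of each other. Timp1 has a single probe set, so no other reading of it was at hand.

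Timp2, the inhibitor that also takes part in activating pro-MMP2 at the cell surface, was high in every sorted fraction. Its level was 8.28 in whole liver, 12.36 in uninjured HSC, 13.06 in VitA-GFP+ cells, 13.21 in uninjured MC, 12.84 in sham PF, 12.46 in HSC of biliary fibrosis, 11.49 in PF of biliary fibrosis and 11.82 in MC of biliary fibrosis. The 7 sorted arrays spanned 1.72, with PF and MC of biliary fibrosis lowest among them. Of its 6 probe sets, 2 were at or above the array median on the 3 uninjured sorted arrays only, with levels from 3.39 to 5.01 on the sham PF array and the arrays of biliary fibrosis.

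Timp3, the matrix-bound inhibitor, had a level of 8.04 in whole liver, 11.18 in uninjured HSC, 12.46 in VitA-GFP+ cells, 11.67 in uninjured MC, 12.00 in sham PF, 12.23 in HSC of biliary fibrosis, 11.90 in PF of biliary fibrosis and 10.87 in MC of biliary fibrosis. By this probe set no pair of sorted arrays was 4-fold apart. Of its other 3 probe sets, 1 spanned 2.97 over the sorted arrays, from 8.94 in MC of biliary fibrosis to 11.91 in VitA-GFP+ cells. Another spanned 2.21 and had MC of biliary fibrosis highest, at 12.25, and uninjured HSC lowest, at 10.05. Timp4, a TIMP best known from heart and other muscle, was below the array median on all 8 arrays, with levels from 2.69 in whole liver to 4.86 in MC of biliary fibrosis. Its other probe set passed the median in PF of biliary fibrosis alone, at 5.62. Differences of Timp4 are therefore between low readings.

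The upstream sequences of Timp1 and Timp3 are shown because these paralogs differed by 4.88 and 1.05 between the 2 HSC arrays. They are the 250 bases before each gene start in RefSeq (GRCm38.p6), 5' to 3' on the strand of the gene, and RefSeq windows were found for 8 of the 10 genes. The Timp1 window is chrX:20869916-20870165, plus strand, within the annotated Syn1 gene, and the Timp3 window is chr10:86300162-86300411, plus strand, within Syn3. Capitals mark matches on either strand to 7 motifs. The AP-1 motif was TGANTCA, and the STAT motif was TTCNNNGAA. The TATA box was searched as TATAAA, and the GC box as GGGCGG. The TEAD motif was GGAATG. The CCAAT box was searched by its name, and an E box as CAGCTG.
Timp1: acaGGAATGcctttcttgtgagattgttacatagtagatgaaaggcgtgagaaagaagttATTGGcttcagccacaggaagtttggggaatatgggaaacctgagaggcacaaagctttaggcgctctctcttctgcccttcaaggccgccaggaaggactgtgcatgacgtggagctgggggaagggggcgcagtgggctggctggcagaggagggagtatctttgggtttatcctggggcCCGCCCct
Timp3: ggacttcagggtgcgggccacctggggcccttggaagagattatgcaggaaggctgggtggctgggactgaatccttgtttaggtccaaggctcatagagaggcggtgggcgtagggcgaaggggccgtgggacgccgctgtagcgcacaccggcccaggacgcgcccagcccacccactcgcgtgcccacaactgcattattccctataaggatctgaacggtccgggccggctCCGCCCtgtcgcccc
The Timp1 window held a GGAATG match starting 247 bases before the gene start, a CCAAT match at 190 and a GGGCGG match at 8, and the Timp3 window held a GGGCGG match at 15. No matches overlapped each other. Among 32851 RefSeq windows of the same length, 12.6% held GGAATG, 33.8% CCAAT and 32.7% GGGCGG. The motifs are a description of these letters only.

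Within the ADAMTS and ADAMTS-like genes, Adamts1, Adamts4 and Adamtsl2 had both MC arrays as the lowest of the sorted arrays. ADAMTS1 cleaves versican and aggrecan and has anti-angiogenic activity. Its level was 7.18 in whole liver, 12.45 in uninjured HSC, 12.45 in VitA-GFP+ cells, 8.55 in uninjured MC, 12.44 in sham PF, 11.90 in HSC of biliary fibrosis, 11.41 in PF of biliary fibrosis and 10.54 in MC of biliary fibrosis. Both MC arrays were below the other 5 sorted arrays.

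Adamts4 encodes an aggrecanase. Its level was 6.11 in whole liver, 8.75 in uninjured HSC, 10.37 in VitA-GFP+ cells, 6.45 in uninjured MC, 11.10 in sham PF, 11.08 in HSC of biliary fibrosis, 11.21 in PF of biliary fibrosis and 7.55 in MC of biliary fibrosis. The PF arrays and HSC of biliary fibrosis were close together at the top, and both MC arrays were lowest of the sorted arrays. Its other probe set also had both MC arrays lowest of the sorted ones, at 4.40 and 7.62, but placed uninjured MC below whole liver, at 5.66.

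Adamtsl2 encodes an ADAMTS-like glycoprotein without protease activity that binds fibrillin-1 and latent TGF-beta binding protein, and loss of it causes geleophysic dysplasia in humans. It had the widest span of the 10 genes, 8.55. Its level was 4.99 in whole liver, 10.01 in uninjured HSC, 10.65 in VitA-GFP+ cells, 3.18 in uninjured MC, 10.09 in sham PF, 11.73 in HSC of biliary fibrosis, 8.16 in PF of biliary fibrosis and 6.22 in MC of biliary fibrosis. Uninjured MC was the one array below whole liver, by 1.81. That reading was 2.34 below the array median, so the span and every difference against it are sizes against a low reading, not exact ratios. Uninjured HSC and VitA-GFP+ cells were 4.54 and 4.97 above the medians of their arrays. HSC of biliary fibrosis was the highest array.

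Adamts1 and Adamtsl2 had similar profiles, with a Pearson r of 0.88 over the 8 arrays and 0.94 over the 7 sorted arrays, as a description over single arrays of different cells. Over the 7 sorted arrays this was the highest r among the members. Over the 8 arrays other pairs were higher, such as Timp3 with Adamts2 (0.97, and 0.79 without whole liver). The upstream windows of Adamts1 and Adamtsl2 are shown with the same marking. The Adamts1 window is chr16:85803114-85803363, minus strand, with no RefSeq gene over it, and the Adamtsl2 window is chr2:27079129-27079378, plus strand, within the annotated span of Adamtsl2 itself.
Adamts1: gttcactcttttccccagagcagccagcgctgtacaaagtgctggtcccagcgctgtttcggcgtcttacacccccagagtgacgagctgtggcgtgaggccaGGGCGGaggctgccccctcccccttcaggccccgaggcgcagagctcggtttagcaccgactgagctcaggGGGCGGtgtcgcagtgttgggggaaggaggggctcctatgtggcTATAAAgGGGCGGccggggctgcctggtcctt
Adamtsl2: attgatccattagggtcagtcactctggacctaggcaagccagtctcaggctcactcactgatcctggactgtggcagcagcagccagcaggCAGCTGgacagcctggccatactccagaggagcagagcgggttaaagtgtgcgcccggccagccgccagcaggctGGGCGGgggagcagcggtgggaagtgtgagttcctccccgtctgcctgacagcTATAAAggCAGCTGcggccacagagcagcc
Both held TATAAA, starting 32 bases before the gene start in Adamts1 and 30 in Adamtsl2, and the windows of the other 6 members with one did not. Among all windows, 12.4% held TATAAA, and whether it bears on the profiles was not tested. The Adamts1 window also held 3 GGGCGG matches, and the Adamtsl2 window held 1 GGGCGG and 2 CAGCTG matches, the latter found in 13.0% of all windows. TGANTCA, found in 6.75% of all windows, and TTCNNNGAA, found in 7.02%, were in none of the 8 member windows.

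Adamts2, Adamts5 and Adamts9 were present in every sorted fraction. Adamts2, the procollagen N-propeptidase of fibrillar collagens, had a level of 6.42 in whole liver, 11.38 in uninjured HSC, 11.84 in VitA-GFP+ cells, 11.83 in uninjured MC, 12.55 in sham PF, 12.60 in HSC of biliary fibrosis, 12.15 in PF of biliary fibrosis and 11.10 in MC of biliary fibrosis. By this probe set the sorted arrays lay within 1.50 of each other, HSC of biliary fibrosis and sham PF being highest, whereas its other 2 probe sets spanned 3.03 and 3.24. Adamts5, an aggrecanase and versicanase, had a level of 6.54 in whole liver, 10.77 in uninjured HSC, 10.55 in VitA-GFP+ cells, 9.91 in uninjured MC, 11.06 in sham PF, 10.27 in HSC of biliary fibrosis, 8.65 in PF of biliary fibrosis and 8.64 in MC of biliary fibrosis. PF and MC of biliary fibrosis were the lowest sorted arrays by this probe set, but another had uninjured MC (7.78) and uninjured HSC (8.18) lowest. Adamts9, a large conserved family member that cleaves versican and aggrecan, had a level of 6.50 in whole liver, 11.42 in uninjured HSC, 10.05 in VitA-GFP+ cells, 9.81 in uninjured MC, 11.04 in sham PF, 11.93 in HSC of biliary fibrosis, 12.16 in PF of biliary fibrosis and 12.16 in MC of biliary fibrosis. The 3 arrays of biliary fibrosis were its 3 highest by this probe set, but not by the other 2, whose highest arrays were sham PF (9.79) and uninjured HSC (8.04).

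Between uninjured fractions and by the brightest probe sets, 4 of the 10 genes were 4-fold apart between HSC and MC, as were 8.97% of all genes. Adamtsl2 was higher in HSC by 6.83, Adamts1 by 3.90 and Adamts4 by 2.29, and Timp1 was at -4.68. Against VitA-GFP+ cells, HSC differed in Timp1 alone (-3.05, 1 of 10 genes against 9.98% of all genes), and MC in Adamtsl2 (-7.47), Adamts4 (-3.91) and Adamts1 (-3.90), 3 of 10 genes against 9.51%. Another probe set passed 4-fold for Timp2 between HSC and MC (-2.425, against -0.85 by its brightest). Between MC and VitA-GFP+ cells one did so for Adamts9 (-2.36, against -0.24). These 3 comparisons share arrays with each other. Sham PF and VitA-GFP+ cells had 0 of 10 genes 4-fold apart, against 5.81% of all genes, and Timp4, at low readings, was the one gene over 2-fold apart by its brightest probe set (1.12). Other probe sets of Timp2 reached -3.18 in this comparison.

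HSC of biliary fibrosis differed from uninjured HSC mainly in Timp1 and Adamts4. The difference was 4.88 for Timp1, or 29.4-fold, and 2.34 for Adamts4, with 2.93 from its other probe set. Timp1 ranked 115 among 20677 genes by its difference. Its reading in uninjured HSC was 0.27 below the array median, so the fold is against a low reading, and in biliary fibrosis it was 4.62 above the array median. These were 2 of 10 genes higher, against 5.90% of all genes, and 0 lower, against 3.13%. The median difference was 0.78 for the 10 genes and 0.13 for all genes. At 2-fold, Adamtsl2 (1.72), Adamts2 (1.22) and Timp3 (1.05) were also higher, making 5 of 10 against 15.0% of all genes, and 0 were lower against 8.86%. The remaining differences were 0.51 for Adamts9, 0.38 for Timp4, 0.11 for Timp2, -0.49 for Adamts5 and -0.55 for Adamts1. Probe sets of Timp2 ran from -2.39 to 0.64 and those of Adamts2 from 0.00 to 3.03, so these differences depend on the probe set. The same held for Adamts5, from -1.42 to 1.29, and Adamts9, from -1.42 to 0.80.

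Markers of other cells were higher on the same HSC array. Of 12 portal fibroblast markers 9 were 4-fold higher, with the list median going from -1.67 to 3.30 above the array median, and of 10 macrophage markers 9 were higher, going from -0.91 to 3.58. Of 10 hepatocyte markers 7 were higher, going from 2.33 to 4.81, and of 10 proliferation markers 7, going from -0.06 to 1.97. Of 11 mesothelial markers 4 were higher (-1.95 to -1.04), of 10 cholangiocyte markers 4 (-2.03 to 0.23) and of 9 lymphocyte and neutrophil markers 4 (-1.62 to 0.73). HSC markers stood at 7.26 in uninjured HSC and 6.14 in biliary fibrosis. The part of other cells and of proliferation in the Timp1 and Adamts4 differences was not tested.

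**Figure D2:**
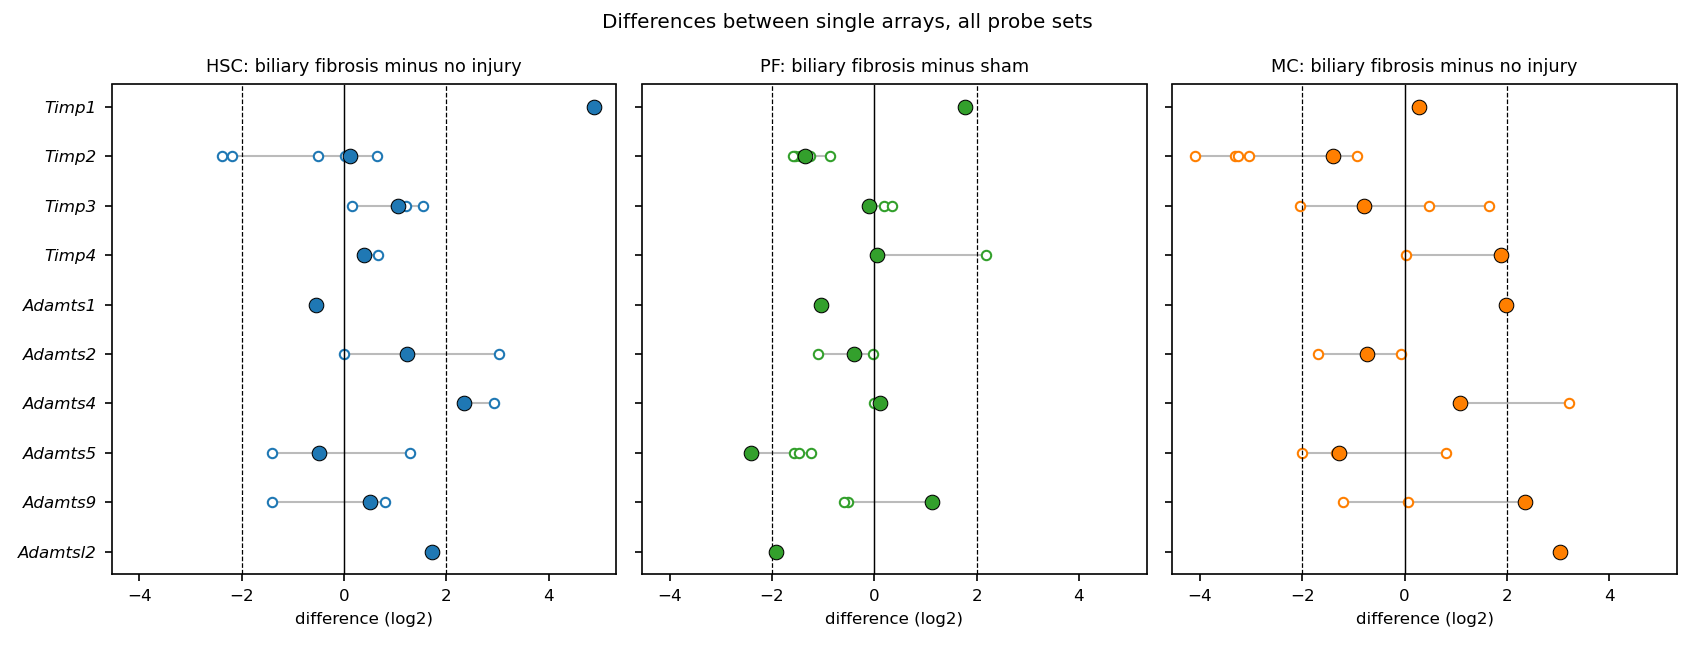
Differences (log2) in HSC (biliary fibrosis minus no injury), PF (biliary fibrosis minus sham) and MC (biliary fibrosis minus no injury), each between single arrays. Filled points are each gene's brightest probe set, open points the other probe sets, grey lines their range and dashed lines a 4-fold difference. Timp1 in HSC stands at 4.88, Adamts5 in PF at -2.41 and Adamtsl2 in MC at 3.04, and Timp2 probe sets spread from -4.10 to -0.92 in MC.

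In PF of biliary fibrosis against sham PF, Adamts5 was the gene past the 4-fold rule by its brightest probe set. Adamts5 differed by -2.41, and its 4 probe sets lay between -2.41 and -1.25. It was the 1 gene of 10 that was 4-fold lower, against 1.58% of all genes, and 0 were higher, against 3.77%. At 2-fold, Timp1 (1.77) and Adamts9 (1.12) were higher, 2 of 10 against 9.23% of all genes. Adamtsl2 (-1.93), Timp2 (-1.36) and Adamts1 (-1.03) were lower together with Adamts5, 4 of 10 against 6.76%. All 6 probe sets of Timp2 were below 0, from -1.60 to -0.86, whereas the other 2 probe sets of Adamts9 were on the opposite side, down to -0.59. Adamts2 (-0.40), Timp3 (-0.11), Timp4 (0.05) and Adamts4 (0.11) were less than 2-fold apart, and the median of the 10 genes was -0.25 against -0.01 for all genes. The other probe set of Timp4 passed 4-fold, at 2.19, from 3.43 in sham PF to 5.62 in biliary fibrosis. That higher reading was 0.14 above the array median.

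The PF array of biliary fibrosis carried genes of other cells too. Of 10 cholangiocyte markers 7 were 4-fold higher, with the list median going from -1.12 to 4.19 above the array median, and of 10 hepatocyte markers 8 were higher, going from -1.37 to 4.94. Of 11 mesothelial markers 6 were higher, going from 1.03 to 4.64, with all 11 at or above the array median. Of 10 macrophage markers 6 were higher, going from -0.85 to 1.83, and of 10 proliferation markers 7, going from -0.45 to 2.81. Portal fibroblast markers stood at 5.64 in sham PF and 5.31 in biliary fibrosis. Of these, Clec3b (-3.18) and Fbln1 (-2.34) were 4-fold lower, and the median difference of the list was -0.97. HSC markers went from 2.60 to 1.53, with Lrat (-3.06), Hhip (-2.95) and Ngfr (-2.31) 4-fold lower and Colec10 (2.11) higher. The part of all these cells in the lower Adamts5, Adamtsl2 and Timp2 readings was not tested. The 2 PF arrays also differed in sex-linked genes, Xist being 11.96 in sham PF and 5.31 in biliary fibrosis. The part of this in the Timp1 difference was not tested.

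In MC of biliary fibrosis against uninjured MC, Adamtsl2 and Adamts9 were higher. Adamtsl2 differed by 3.04, from 2.34 below the array median to 0.86 above it. It is not counted when the 75th percentile of each array is the minimum level. Adamts9 differed by 2.35, but its other probe sets gave 0.07 and -1.20. These were 2 of 10 genes, against 6.20% of all genes, and 0 were lower, against 4.68%. At 2-fold, Adamts1 (1.99) and Adamts4 (1.09) were higher as well, 4 of 10 against 17.2%, and Timp2 (-1.39) and Adamts5 (-1.28) were lower, 2 of 10 against 12.9%. Adamts2 (-0.73), Timp3 (-0.80) and Timp1 (0.29) were less than 2-fold apart, and Timp4 (1.88) was read below the median of both arrays. The other probe set of Adamts4 gave 3.22, and the 6 of Timp2 lay between -4.10 and -0.92, so both genes pass 4-fold by other probe sets than the brightest. Probe sets disagreed in sign for Timp3, from -2.05 to 1.64, and for Adamts5, from -2.00 to 0.81. The median difference was 0.69 for the 10 genes and 0.25 for all genes, with an SD between probe sets of a gene of 0.94 (median over genes), against 0.67 in the HSC pair and 0.39 in the PF pair.

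Of the 12 HSC markers, 5 were at or above the array median in uninjured MC and 7 in MC of biliary fibrosis, with list medians of -0.83 and 0.82. Of these 12, Colec10 (3.21), Hand2 (2.06) and Vipr1 (2.00) were 4-fold higher in biliary fibrosis. Lrat, Reln, Hhip, Lhx2 and Ngfr were below the array median there, Lrat by 2.06 and Reln by 1.47. Macrophage markers went from -1.22 to 1.89. Xist also differed, at 11.41 in uninjured MC and 5.84 in biliary fibrosis, while Ddx3y was high on both, at 9.67 and 11.78. The part of other cells and of sex in the differences of Adamtsl2 and Adamts9 was not tested.

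**Figure D3:**
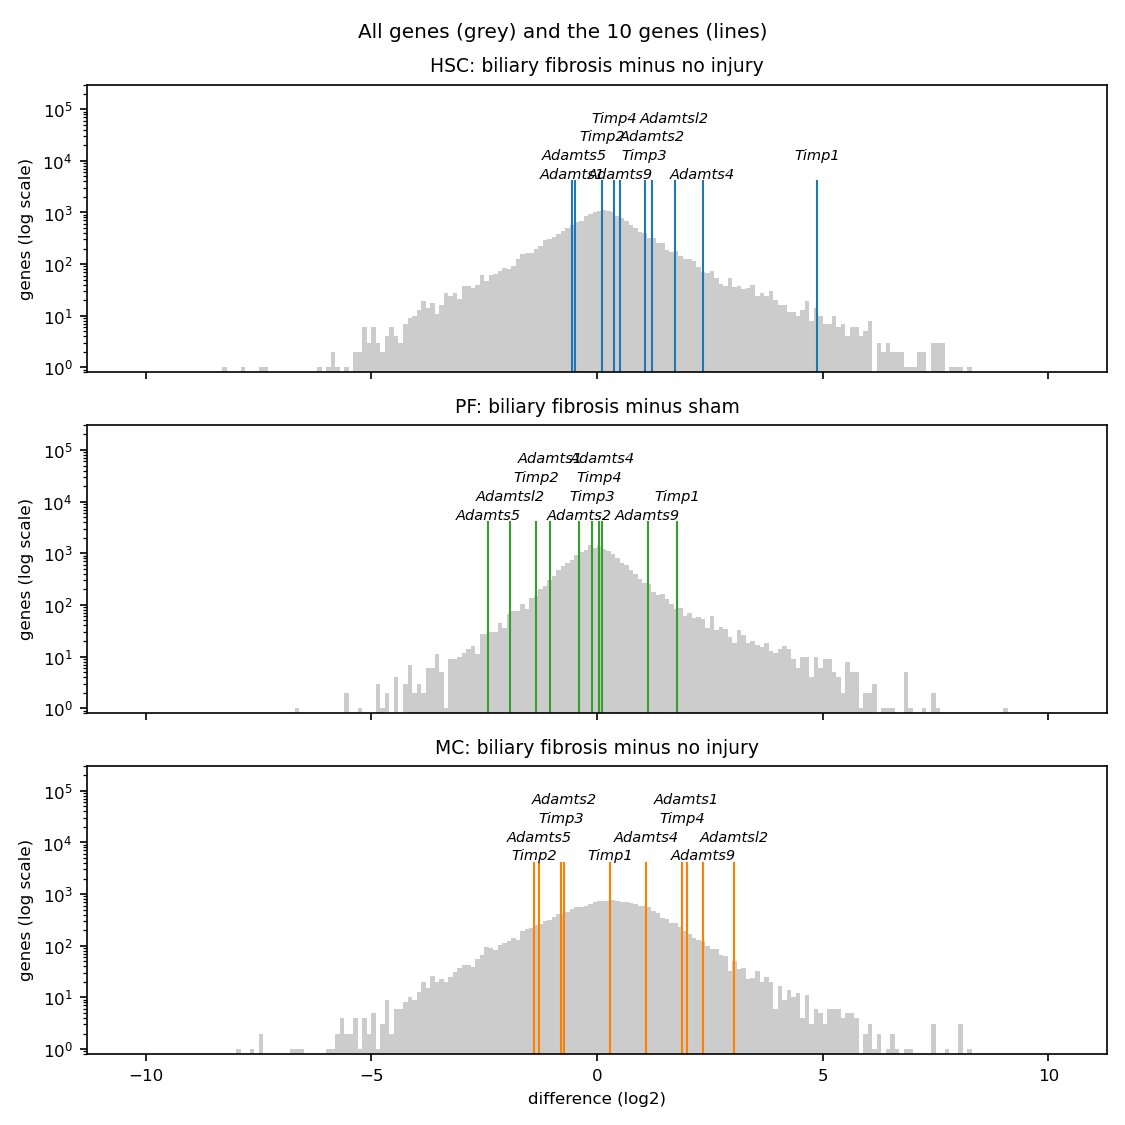
Number of genes (log axis) by difference (log2) in the HSC, PF and MC comparisons of biliary fibrosis, with all 20677 genes in grey and the 10 genes as labelled lines. Timp1 lies far to the right in HSC at 4.88, and most of the other lines fall within the bulk of all genes.

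By the brightest probe sets, the fractions of biliary fibrosis, whose arrays all had high 3' to 5' ratios, differed mostly in Adamtsl2 and Adamts4. Adamtsl2 was 3.57 higher in HSC than in PF, the 1 gene of 10 that was 4-fold apart, against 6.05% of all genes. Adamts4 was at -3.67 in MC against PF, again 1 of 10, against 7.97%, with -3.39 from its other probe set. HSC exceeded MC in Adamtsl2 by 5.51 and in Adamts4 by 3.54, 2 of 10 against 9.86%. Other probe sets passed 4-fold between HSC and MC for Adamts2 (2.86, against 1.50 by its brightest), Adamts9 (2.59, against -0.23) and Timp2 (2.45, against 0.64). Between MC and PF they did so for Adamts2 (-2.14, against -1.05), Adamts9 (-2.28, against 0.00) and Timp4 (-2.66, against 0.60, at low readings). Differences of these genes between the fractions thus depend on the probe set. The 3 comparisons share arrays, and each gene's values stand side by side in the levels above.

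The wider family and its partners were read from lists. Of 20 other ADAMTS and ADAMTS-like genes 17 were measured. In HSC 2 were 4-fold higher, Adamtsl1 (3.81) and Adamts12 (3.67), and Adamts19 (-4.47) was lower. In PF Adamts8 (-2.72), Adamtsl3 (-2.32) and Adamtsl5 (-2.14) were lower and 0 were higher. In MC Adamts20 (2.79) was higher and Adamts19 (-2.46) lower. Of all genes, 5.90% were 4-fold higher in HSC, 3.77% in PF and 6.20% in MC, and 3.13%, 1.58% and 4.68% were lower. The MC counts were near these shares. Median differences of the 17 genes were 0.43, -0.60 and -0.31 in HSC, PF and MC, against 0.13, -0.01 and 0.25 over all genes.

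**Figure D4:**
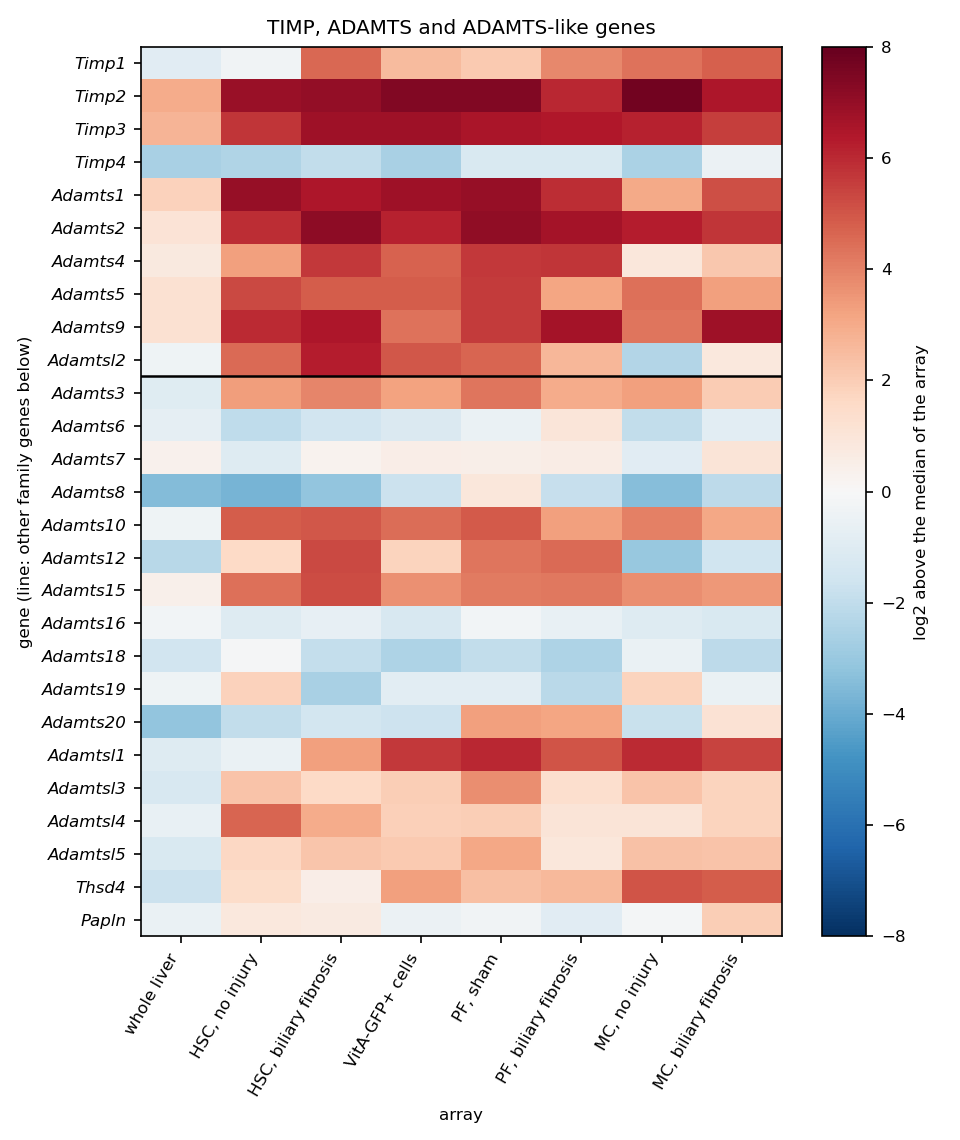
Map of log2 level above the median of each array (red above, blue below) for the 10 genes (above the line) and 17 other ADAMTS and ADAMTS-like genes on the 8 arrays. Rows are to be read along the arrays only, since probe sets differ in brightness. Adamts4, Adamts12 and Adamtsl2 are pale or blue on both MC arrays.

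Of 25 measured metalloproteinases of the MMP and ADAM families, 8 were 4-fold higher in HSC, 3 in PF and 3 in MC, and 0 were lower in each, with medians of 0.89, -0.04 and 0.33. Of all genes, 5.90%, 3.77% and 6.20% were 4-fold higher and 3.13%, 1.58% and 4.68% lower, shares that apply to the next lists too. The largest in HSC were the stromelysin Mmp10 (5.08), the membrane-bound Adam8 (4.79), matrilysin, Mmp7 (4.41), and Mmp19 (3.80). In PF they were Mmp7 (7.51), the membrane-type Mmp15 (4.91) and Adam8 (2.12), and in MC Adam12 (5.47), the gelatinase Mmp2 (5.08) and Mmp7 (4.70). Of 15 ADAMTS substrates, versican, Vcan (3.44), thrombospondin-1, Thbs1 (2.95), and Comp (2.06) were higher in HSC, aggrecan, Acan (3.35), in PF and Thbs1 (3.59) in MC, with 0 lower in each. Of 6 procollagen processing genes, the enhancer Pcolce2 was lower in PF (-4.13), and 0 others were 4-fold apart in the 3 comparisons. Of 9 genes for activation, inhibition and clearance, the syndecan Sdc1 (4.51) and the protease inhibitor Serpine2 (3.73) were higher in HSC and Sdc1 (3.48) in MC, and the proprotein convertase Pcsk6 (-2.87) was lower in PF.

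Likeness of profile was read as Pearson r of levels over the 8 arrays among 10198 genes that span at least 2 and reach the median of an array, naming up to 3 of the closest genes, with no test. All points include whole liver, which is low for most of these genes. Timp1 was closest to Alcam (0.95), Cacnb3 (0.95) and Cux1 (0.94), and Timp2 to Fbln5, Gabra3 and Thbd (0.98 to 0.99). Timp3 was closest to Cnn2, Phxr4 and LOC552906 (0.98), and Adamts1 to Tnfsf9 (0.996), Dusp10 (0.97) and Pdk4 (0.97). Among the genes closest to Adamts2 were Helz (0.99) and Rhoj (0.98), and Adamts4 was closest to Serpine2 (0.99), 4930428B01Rik (0.98) and Lama2 (0.97). Adamts5 was closest to C1qtnf2, Slc43a3 and Gm6556 (0.98 to 0.99), and Adamts9 to Ssh1, Myh9 and Apbb2 (0.98 to 0.99). Adamtsl2 was closest to Lrp5 (0.99), Mmp17 (0.97) and Calhm5 (0.97). Without whole liver these values were between 0.74 for Rhoj with Adamts2 and 0.997 for Tnfsf9 with Adamts1. Timp4 never reached the median of an array and was left out.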

How the data were processed

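RNA was measured on Affymetrix mouse whole-genome arrays after amplification from small amounts, per the labels' protocols. The deposited intensity values are on the linear scale and come from the authors' normalization, for which the submitters' processing notes name RMA and Partek without versions. Array medians over non-control probe sets were 39.6 to 51.2 intensity units. The 2 deposited tables hold equal values (largest difference 0). Here log2 was taken, probe sets naming 1 gene (38011 of 45101) were kept with symbols updated through gene identifiers, and each gene's brightest probe set on average was used. A 4-fold difference means 2 or more on the log2 scale with the higher array at or above its own median. With 1 array per group no test was made, and the number of arrays limits the precision. The shares of all genes use the same rule. Genes named are all members, up to 4 list genes per comparison past the 4-fold rule, and the 3 genes of closest profile, of which 1 is not reported here. Genes that only serve as checks are named beside the result they touch. The members and lists were chosen with earlier results of these data known. The call rule was tested on simulated data. Upstream sequences are from RefSeq (GRCm38.p6). Python 3.11.15, numpy 2.4.6, pandas 2.3.3 and matplotlib 3.10.9 were used. Settings tried 1 at a time are given in the closing section.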

Additional observations from a re-analysis of the deposited data

Results flagged for a closer look

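Adamtsl2 went opposite ways in the comparisons of biliary fibrosis: it was 3.04 higher in MC than in uninjured MC and differed by -1.93 in PF from sham PF, a gap that was not tested, each side being a single pair of arrays and the uninjured MC reading being 2.34 below the array median. No group has the 4 arrays needed to look for outlying samples.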

How the results depend on the processing

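No paired analysis was possible because each group is 1 array. Quantile normalization anew, a shift of arrays to the same median, no minimum level and only probe sets without suffixes changed none of the counts of members past the 4-fold rule by over 1.5 times. The shift to the same median did add Adamts1 to the members higher in the MC pair. With the 75th percentile as minimum level, 1 member was higher in the MC pair in place of 2, Adamtsl2 being lost. Timp1 was then also lost from the members higher in sham PF than in whole liver. With all probe sets of a gene averaged, 0 members were lower in the PF pair (Adamts5 at -1.68). In the MC pair 1 was lower (Timp2 at -2.67), and Adamts9 (0.41) was lost and Adamts4 (2.16) gained among the 2 higher. Averaging also added Adamts2 to the members higher in HSC than in MC of biliary fibrosis. At 2-fold, 5 members were higher in the HSC pair, 2 higher and 4 lower in the PF pair, and 4 higher and 2 lower in the MC pair. With VitA-GFP+ cells as the PF reference, 1 member was higher in the PF pair (Adamts9 at 2.11), and the 1 lower member was Adamtsl2 (-2.49) in place of Adamts5 (-1.90). 

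Chosen after seeing the data, subtracting sham PF minus VitA-GFP+ left 1 member higher in the MC pair (Adamtsl2 at 3.60, Adamts9 at 1.37), and in the HSC pair Timp1 (5.56) and Adamtsl2 (2.28) passed in place of Adamts4 (1.61). The subtracted difference also holds cell make-up, with 8 of 11 mesothelial and 9 of 10 macrophage markers 4-fold lower in sham PF. VitA-GFP+ cells also have another code series than uninjured HSC and MC. The resulting values therefore cannot be read as free of code series or RNA quality. Leaving out genes 2-fold apart between those arrays (Timp4 among the members) changed no count. Of 150 recomputed differences of single members, 119 moved by at most 0.5, 31 by more, and 0 of those past 4-fold changed sign. The causes were not tested. Low readings such as Timp4 limit what can be said, since signal near background understates differences.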
